A study of Homo sapiens with 8 samples.

Results

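The lung lineage transcription factors are DNA-binding regulators, with 1 atypical homeodomain protein, that set and hold the identity of airway and alveolar epithelium. The 9 genes described here were chosen by name: TP63, SOX2, NKX2-1, FOXA1, FOXA2, GATA6, CEBPA, HOPX and ETV5. They are 9 of the 60106 genes counted, and their levels were compared with the histological label of each cell line. RNA was sequenced from pneumospheres, which are floating cancer cell spheres, of 4 established non-small cell lung cancer lines. H23, H820 and H1975 carry the label adenocarcinoma, and EBC1 carries the label squamous cell carcinoma. From each line, untreated spheres gave 1 library, and spheres stimulated in 0% serum with 25 µg/ml of PD-L1s gave another after 15 min. PD-L1s is the ligand of the PD-1 receptor made in a soluble, synthetic form. All 8 libraries came from spheres formed without serum in a medium that contained fibroblast and epithelial growth factors, so no group was free of these factors.

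In the lung, p63 (encoded by TP63) maintains basal cells and, with SOX2, drives the squamous program of keratins and desmosomal proteins. NKX2-1 specifies the lung and directs surfactant and club cell genes, often on enhancers opened by the pioneer factors FOXA1 and FOXA2 and together with GATA6 and CEBPA. HOPX marks alveolar type 1 cells, and ETV5 is an ETS factor of the PEA3 group that acts downstream of FGF and ERK signalling in alveolar type 2 cells. Pathologists use p63 with keratin 5 to recognise squamous carcinoma and NKX2-1 with napsin A to recognise lung adenocarcinoma. Loss of NKX2-1 in lung tumours is known to accompany gut-like gene expression, in which FOXA1 and FOXA2 take part.

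The start-site sequences of these genes bear on the results because several of the factors bind DNA motifs of known form, and some are known to regulate each other. RefSeq promoters on GRCh38.p14, from 250 bases before to 50 bases after each start, were matched for 7 of the 9 genes, and 7 motifs were searched on both strands. For forkhead factors the motif was TGTTTAC and for NKX2-1 it was CAAGTG. For GATA factors it was AGATAA and for SOX factors ACAATGG. The C/EBP motif was TTGCNNAA, the ETS motif CCGGAAGT, and the p53 family motif the core CATG repeated 6 bases apart. No 2 matches overlapped. The promoters of TP63, NKX2-1 and FOXA1 are shown because they were those with a match, and because TP63 and NKX2-1 were highest, and FOXA1 lowest, in the same line. Capitals mark the matches, each written as it reads on the strand of the gene.
TP63: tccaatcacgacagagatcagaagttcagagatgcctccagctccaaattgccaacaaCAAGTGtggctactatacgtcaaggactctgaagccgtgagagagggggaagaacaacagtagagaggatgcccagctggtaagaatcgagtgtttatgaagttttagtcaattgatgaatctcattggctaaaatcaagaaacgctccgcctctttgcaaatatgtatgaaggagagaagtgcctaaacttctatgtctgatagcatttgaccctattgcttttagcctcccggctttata
NKX2-1: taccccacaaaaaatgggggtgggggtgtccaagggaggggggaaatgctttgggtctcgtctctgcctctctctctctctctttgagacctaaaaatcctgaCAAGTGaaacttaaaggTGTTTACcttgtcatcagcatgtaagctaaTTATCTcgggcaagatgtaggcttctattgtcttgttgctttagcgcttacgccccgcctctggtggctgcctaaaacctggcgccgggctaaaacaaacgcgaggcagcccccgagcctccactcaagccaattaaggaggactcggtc
FOXA1: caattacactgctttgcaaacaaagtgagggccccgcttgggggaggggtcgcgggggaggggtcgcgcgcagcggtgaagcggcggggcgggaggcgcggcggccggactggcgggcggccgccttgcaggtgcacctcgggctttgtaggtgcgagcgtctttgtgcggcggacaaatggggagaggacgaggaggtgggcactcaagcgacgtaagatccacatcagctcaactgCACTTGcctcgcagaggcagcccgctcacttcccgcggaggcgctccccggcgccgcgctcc

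The TP63 promoter lies at chr3:189631139-189631438 on the plus strand, at the upstream start of the gene that gives the TA form of p63. The internal start that gives the ΔN form typical of basal cells is another promoter, and counts over the whole gene do not separate the forms. The NKX2-1 promoter shown lies at chr14:36519507-36519806 and the FOXA1 promoter at chr14:37595200-37595499, both on the minus strand. NKX2-1 had its NKX2-1 motif at -147, its forkhead motif at -130 and a GATA motif on the opposite strand at -100 from the start. TP63 had an NKX2-1 motif at -192, and FOXA1 had one on the opposite strand at -12. NKX2-1 and HOPX had more than 1 promoter each, and all were searched. The other NKX2-1 promoter, at chr14:36520183-36520482, had no match. A gene was counted if any of its promoters matched, whereas the share over all promoters counts each promoter, so the 2 are not strictly alike. The NKX2-1 motif was in promoters of 3 of the 7 genes and in 11.5% of all 35116 promoters of that length. The forkhead and GATA motifs were each in 1 of 7, against 3.42% and 10.3% of all promoters. The SOX, C/EBP, ETS and p53 family motifs had no match in the 7 genes and were in 3.16%, 10.5%, 4.14% and 0.373% of all promoters. A match describes letters in this window and is not evidence of binding.

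Levels are given as CPM, counts per 1000000 in a library, with library totals corrected by TMM for differing RNA composition. The total count ran from 5559870 to 27524854 per library. In EBC1 and H820 the untreated library was much shallower than the treated one. All 9 genes passed the filter on low counts that left 24185 genes, HOPX through the H1975 libraries alone. Line contrasts were fitted with edgeR on all 8 libraries and rest on 2 libraries per line. Their p-values thus reflect how far libraries of a line spread, not tumours. Nothing in the labels says that the libraries of a line came from separate cultures. Adjusted p-values are Benjamini-Hochberg values over all genes tested, with a call under 0.05, and SE is the standard error of the fitted log2 difference. In bulk RNA, fewer cells of a type and less RNA per cell cannot be told apart.

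**Figure D1:**
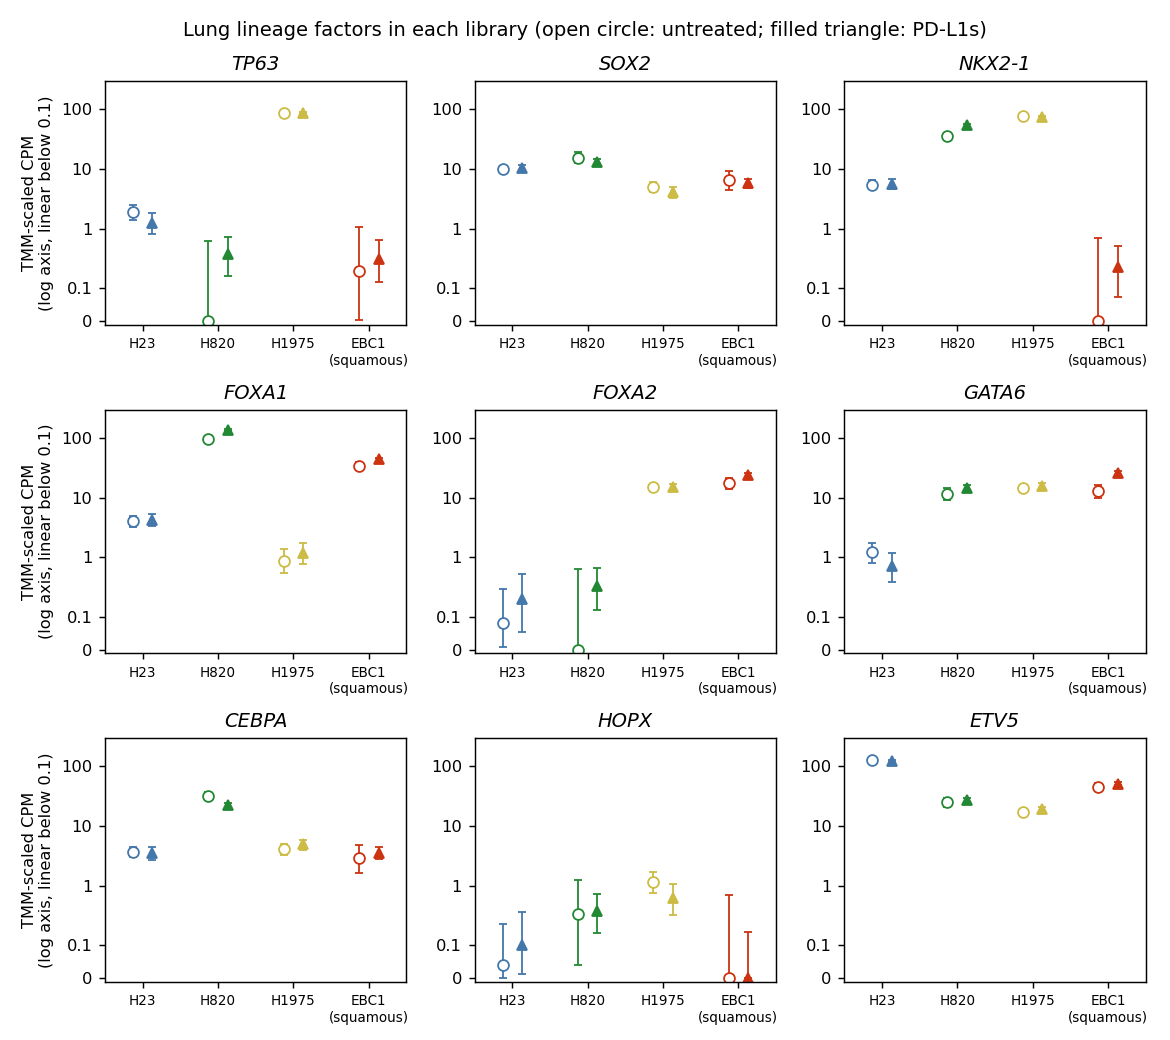
Each panel plots the TMM-scaled CPM of 1 factor (log axis, linear below 0.1) in the 8 libraries by line, open circles untreated and filled triangles PD-L1s, with 95% Poisson intervals of the count. TP63 sits near 87 CPM in both H1975 libraries and at most at 1.89 CPM elsewhere, and NKX2-1 is at 0 and 0.224 CPM in EBC1.

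The squamous factor TP63 was high in a line labelled adenocarcinoma and almost absent from the line labelled squamous. Untreated and treated libraries, in that order throughout, had 87.2 and 86.7 CPM of TP63 in H1975, 1.89 and 1.26 in H23, 0 and 0.372 in H820, and 0.192 and 0.314 in EBC1. H1975 thus stood alone, with 1997 and 1839 counts, against 1 and 7 counts in EBC1. TP63 was higher in H1975 than in H23 by 5.77 ± 0.238 on the log2 scale (SE, adjusted p = 4.10e-13). H23 in turn was above EBC1 by 2.41 ± 0.483 (adjusted p = 3.08e-04). EBC1 and H820 did not differ beyond their spread (0.01 ± 0.748, adjusted p = 1). The gene (ENSG00000073282.12_3) lies on chromosome 3 of GRCh37 from 189349216 to 189615068 on the plus strand, and the values are counts over its exons. The microRNA MIR944, encoded within it, had 3 counts in each H1975 library and 0 in the other 6.

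SOX2, the partner of p63 in squamous cells and a marker of the proximal airway, was within a narrow range. It had 15.6 and 13.2 CPM in H820, 10.1 and 10.3 in H23, 6.53 and 5.78 in EBC1, and 4.98 and 4.06 in H1975. No library of a line overlapped those of another line. H820 exceeded H23 by 0.49 ± 0.193 (log2, adjusted p = 0.0360) and H23 exceeded EBC1 by 0.73 ± 0.211 (adjusted p = 6.09e-03). The step from EBC1 to H1975 did not pass (0.45 ± 0.223, adjusted p = 0.104). The H820 to H23 difference lost its call with DESeq2 (adjusted p = 0.0894), with library size only (0.630), with a minimum count of 50 (0.0631), and with any gene with a count kept (0.104). Thus EBC1, the only line with the squamous label, had neither the highest SOX2 nor a raised TP63. SOX2 (ENSG00000181449.3_5) lies on the same chromosome from 181429712 to 181432224, plus strand, inside SOX2-OT, a long noncoding RNA that shares 0 exonic bases with it and had 2 to 32 counts per library.

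NKX2-1, the marker of lung adenocarcinoma and of distal lung, was high in H1975 and H820, low in H23 and near 0 in EBC1. It had 78.4 and 75.2 CPM in H1975, 35.6 and 54.0 in H820, 5.46 and 5.68 in H23, and 0 and 0.224 in EBC1 (0 and 5 counts). The lines did not overlap, and each step in that order was called. H1975 was above H820 by 0.78 ± 0.177 (log2, adjusted p = 1.06e-03), H820 above H23 by 3.003 ± 0.201 (adjusted p = 4.09e-10), and H23 above EBC1 by 4.97 ± 0.431 (adjusted p = 1.27e-08). So lines with the same adenocarcinoma label spanned more than an order of magnitude. H1975 was the line with the highest level of both NKX2-1 and TP63. The 0 counts of untreated EBC1 allow up to 0.576 CPM (a floor of 3 counts), since that library was shallow. NKX2-1 (ENSG00000136352.17_4, chromosome 14 from 36985597 to 36990354, minus strand) shares 54 exonic bases with RP11-896J10.3 on the same strand. Read pairs there were counted for both, and RP11-896J10.3 had 398 and 305 counts in H1975, 62 and 280 in H820, 13 and 12 in H23, and 0 and 1 in EBC1.

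FOXA1 and FOXA2, pioneer factors of the forkhead family that overlap in function in the lung, were distributed differently over the lines. FOXA1 had 97.6 and 137 CPM in H820, 33.8 and 44.1 in EBC1, 3.97 and 4.22 in H23, and 0.873 and 1.18 in H1975. FOXA2 had 17.3 and 24.2 CPM in EBC1, 15.0 and 15.1 in H1975, 0 and 0.325 in H820, and 0.0803 and 0.201 in H23. EBC1 held both, H820 mainly FOXA1, H1975 mainly FOXA2, and H23 a low level of FOXA1 with 2 and 4 counts of FOXA2. Each step of FOXA1 was called, with H820 above EBC1 by 1.59 ± 0.155 (log2, adjusted p = 8.63e-08), EBC1 above H23 by 3.23 ± 0.178 (adjusted p = 2.33e-11) and H23 above H1975 by 2.01 ± 0.234 (adjusted p = 6.00e-07). For FOXA2, H1975 was above H820 by 5.96 ± 0.392 (adjusted p = 4.38e-10). EBC1 against H1975 (0.45 ± 0.213, adjusted p = 0.0836) and H820 against H23 (0.78 ± 0.802, adjusted p = 0.424) did not pass. FOXA1 (ENSG00000129514.5_2) lies on chromosome 14 from 38059189 to 38064239 and FOXA2 (ENSG00000125798.14_4) on chromosome 20 from 22561643 to 22566093, both on the minus strand. FOXA2 shares 70 exonic bases with RP4-788L20.5 on the same strand, which had 63 and 68 counts in H1975, 10 and 64 in EBC1, and 0 to 2 in H23 and H820.

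GATA6, a zinc finger factor of foregut endoderm that acts with NKX2-1, was present in 3 lines and low in H23. It had 12.7 and 25.9 CPM in EBC1, 14.2 and 15.5 in H1975, 11.5 and 14.7 in H820, and 1.20 and 0.704 in H23. EBC1 overlapped H1975 and H820, and neither neighbouring step passed (adjusted p = 0.167 and 0.516). EBC1 was above H820 by 0.58 ± 0.240 on the log2 scale (adjusted p = 0.0476), with untreated EBC1 inside the range of H820. H820 was above H23 by 3.71 ± 0.311 (log2, adjusted p = 8.97e-09). CEBPA, a leucine zipper factor of alveolar and liver differentiation, was high in H820 alone. It had 32.5 and 22.1 CPM there, 4.10 and 4.90 in H1975, 3.69 and 3.52 in H23, and 2.88 and 3.54 in EBC1. H820 exceeded H1975 by 2.57 ± 0.226 (adjusted p = 2.31e-08), and the other steps did not pass (adjusted p = 0.257 and 0.816). GATA6 (ENSG00000141448.8_2) lies on chromosome 18 from 19749404 to 19782491, plus strand, and CEBPA (ENSG00000245848.2_2) on chromosome 19 from 33790840 to 33793470, minus strand.

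HOPX, the alveolar type 1 marker, was low in every library and near the limit of detection outside H1975. It had 1.14 and 0.613 CPM in H1975 (26 and 13 counts), 0.339 and 0.372 in H820, 0.0402 and 0.101 in H23, and no count in EBC1. With a floor of 3 counts over the pair of EBC1 libraries, it was at least 8.02-fold lower in EBC1 than in H1975 and at least 3.26-fold lower than in H820. No fold can be given against H23, which was also under the floor. ETV5 had at least 148 counts in each library and was highest in H23. It had 127 and 122 CPM in H23, 45.7 and 51.5 in EBC1, and was lower in H820 at 25.1 and 27.8 and in H1975 at 17.4 and 19.1. All steps of ETV5 were called, with H23 above EBC1 by 1.36 ± 0.145 (log2, adjusted p = 2.05e-07), EBC1 above H820 by 0.88 ± 0.151 (adjusted p = 7.55e-05) and H820 above H1975 by 0.54 ± 0.152 (adjusted p = 5.77e-03). HOPX (ENSG00000171476.21_3) lies on chromosome 4 from 57514154 to 57548065 and ETV5 (ENSG00000244405.7_3) on chromosome 3 from 185764097 to 185826901, both on the minus strand.

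**Figure D2:**
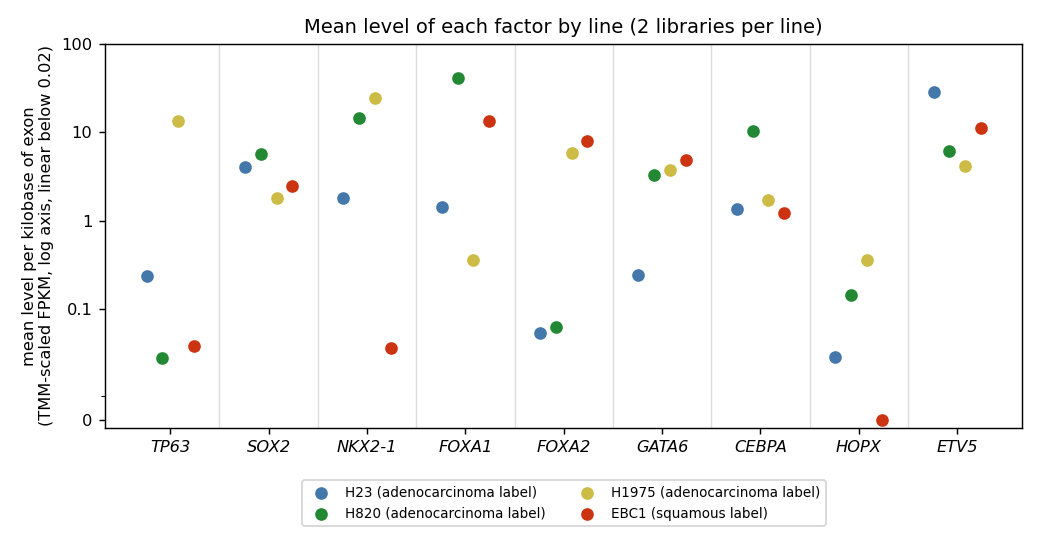
The vertical axis gives the mean of 2 libraries per line in FPKM (TMM-scaled CPM per kilobase of exon, log axis, linear below 0.02), and each colour is a line. FOXA1 leads in H820 and EBC1 (41.1 and 13.6 FPKM), NKX2-1 in H1975 (24.7) and ETV5 in H23 (28.8).

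Levels of different genes can be compared only per length, here as FPKM, the mean of a line's CPM divided by exonic length in kilobases. H1975 was led by NKX2-1 at 24.7 FPKM and TP63 at 13.3, followed by FOXA2 at 5.79. H820 was led by FOXA1 at 41.1 FPKM, NKX2-1 at 14.4 and CEBPA at 10.4. EBC1 was led by FOXA1 at 13.6, ETV5 at 11.2 and FOXA2 at 7.96. In H23, ETV5 stood at 28.8 FPKM, and the next factors, SOX2 and NKX2-1, were at 4.05 and 1.79. Each line thus had its own leading combination, and the 3 adenocarcinoma lines had 3 different leading factors.

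Counted over pairs of lines, most factors differed, as most genes did. Of the 9 factors, 7 were called between H23 and EBC1, where 61.3% of all genes were called, 8 between H23 and H820 (58.9% of genes) and 8 between H23 and H1975 (62.6%). Between EBC1 and H820, 8 factors were called (55.7% of genes), between EBC1 and H1975, 5 (52.6%), and between H820 and H1975, 7 (54.5%). With DESeq2 the count between H23 and H820 was 6. The sparse HOPX, which passed the filter through H1975 alone, is among the edgeR calls of H23 and of EBC1 against both H820 and H1975. Its calls carry no weight in those counts. Whether these counts differ between pairs was not tested.

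Against the label, EBC1 was compared with the mean of the 3 adenocarcinoma lines, taken on the log2 scale. All 9 factors were called, against 54.4% of genes in either direction. HOPX passed the filter through H1975, where it was highest, so its call carries no weight here. FOXA2, FOXA1, GATA6 and ETV5 were higher in EBC1 (28.1% of genes were), and NKX2-1, TP63, HOPX, CEBPA and SOX2 were lower (26.4% of genes were). The median over the factors was a log2 difference of -0.50, beside -0.08 over all genes. FOXA2 was 25.7-fold higher (log2 4.69 ± 0.236, adjusted p = 1.20e-11), FOXA1 4.90-fold (2.29 ± 0.133, adjusted p = 7.25e-11) and GATA6 3.38-fold (1.76 ± 0.200, adjusted p = 5.76e-07). NKX2-1 fell by 7.23 ± 0.351 on the log2 scale (adjusted p = 6.93e-12) and TP63 by 3.52 ± 0.475 (adjusted p = 4.79e-06). CEBPA was lower by a log2 difference of -1.15 ± 0.230 (adjusted p = 3.33e-04), SOX2 by -0.50 ± 0.184 (adjusted p = 0.0280), and ETV5 was higher by 0.31 ± 0.119 (adjusted p = 0.0329). The mean of the 3 lines stands for very unequal levels, as the values by library show. On the log2 scale, a line near 0 lowers that mean strongly, as H23 and H820 do for FOXA2. Against H1975 alone, FOXA2 in EBC1 was 1.37-fold higher and not called (edgeR adjusted p = 0.0836).

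For 3 of the 9 factors both EBC1 libraries lay outside the values of all 6 adenocarcinoma libraries. FOXA2 lay above them, as 16% of all genes did, and NKX2-1 and HOPX lay below them, as 17.8% of all genes did. For HOPX, the 0 counts of EBC1 are not distinguishable at this depth from the 1 and 2 counts of H23. For the other 6, at least 1 EBC1 library fell within the adenocarcinoma range, while treated EBC1 lay above it for GATA6 (25.9 against at most 15.5 CPM) and untreated EBC1 below it for CEBPA (2.88 against at least 3.52). Without H1975 the TP63 difference was -1.14 on the log2 scale (adjusted p = 0.201). Without the treated H820 library its call was also lost (adjusted p = 1), in a fit where H820 had 0 counts and the fitted size is no measure. Without H820 the CEBPA difference was -0.30 (adjusted p = 0.280) and the SOX2 difference -0.15 (adjusted p = 0.498), and without H23 the SOX2 difference was -0.38 (adjusted p = 0.174). ETV5 was at 0.03 without H820 (adjusted p = 0.814) and turned to -0.20 without H1975 (adjusted p = 0.233), and with library size only it was -0.01 (adjusted p = 1). An exact two-sided permutation test over the 4 line means, whose smallest possible p is 0.25, gave 0.25 for NKX2-1 and FOXA2 and 0.5 to 1 for the other factors.

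The labels were checked against the defining markers named above. KRT5, the basal keratin, had 0 or 1 count in each of the 8 libraries, EBC1 included. DSG3, a squamous desmosomal cadherin, had 0 counts in both EBC1 libraries and 3 and 23 in H1975. The squamous label of EBC1 was therefore not matched by TP63, KRT5 or DSG3 in these libraries. The labels do not say whether the lines were authenticated. NAPSA, which encodes napsin A, had 1.92 and 2.24 CPM in EBC1, within the 1.01 to 4.23 CPM of the adenocarcinoma libraries, and SFTPB, a surfactant protein gene, had at most 6 counts in any library. Of the adenocarcinoma markers, NKX2-1 alone was high in H820 and H1975.

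The wider programs that these factors regulate were described from lists chosen from textbook knowledge. Earlier results of these data were known when the lists were chosen, so their counts are a description. Of 21 squamous genes, 14 passed the filter, and 9 of those had their highest mean in H1975, 3 in H23, 2 in H820 and 0 in EBC1, whereas 23.3%, 28.9%, 24.7% and 23.1% of all genes did. This count is partly set by the filter, since a gene such as CLCA2, with 11.6 CPM in H1975 and at most 0.44 elsewhere, passed through H1975 alone. EBC1 against H1975 had 0 squamous genes called higher and 11 lower of 14, where 52.6% of all genes were called in either direction. The median log2 difference was -2.36 (all genes -0.08). Genes that passed through H1975 alone are among the 14, so the filter partly sets these calls and this median too. ITGB4, a hemidesmosome integrin, had 268.3 CPM on average in H1975, 57.5 in H820, 112.9 in EBC1 and 31.0 in H23, and JAG2, a Notch ligand, 169, 58.6, 41.6 and 37.7 in the same order. PERP, a desmosomal membrane protein and p53 family target, departed from this order with 555 CPM in H23 and 202 in EBC1. The basal keratin KRT14 had 1 and 3 counts in H1975, whereas KRT17 had 10.5 CPM there and at most 2.34 in the other lines. KRT15 was not particular to H1975, with 43.5 CPM there, 25.2 in H820, 21.4 in EBC1 and 1.19 in H23.

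**Figure D3:**
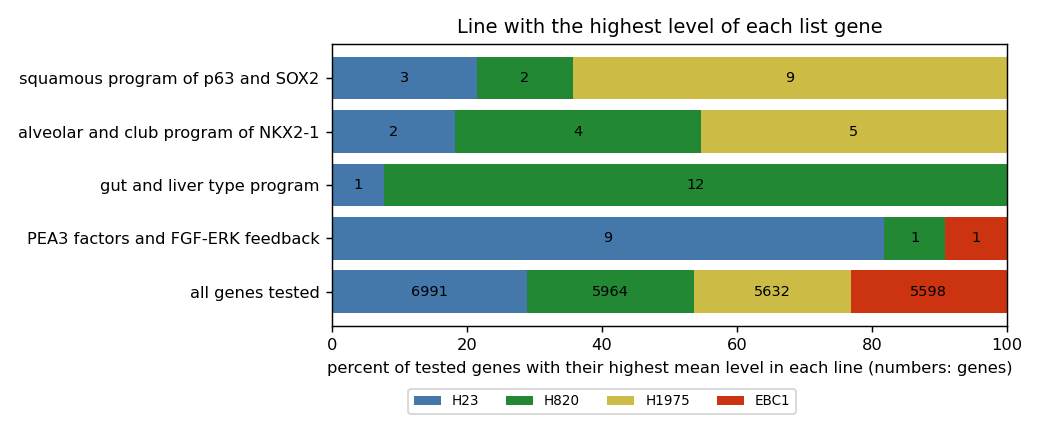
Each bar splits the tested genes of a list, or all genes tested, by the line with the highest mean CPM, in percent, with the number of genes written in each segment. Squamous genes are mostly highest in H1975 (9 of 14), gut and liver type genes in H820 (12 of 13) and FGF-ERK feedback genes in H23 (9 of 11), while all genes split more evenly.

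Of 19 alveolar and club genes, 11 passed the filter, and 5 had their highest mean in H1975, 4 in H820, 2 in H23 and 0 in EBC1. Between EBC1 and H820, 1 was called higher and 6 lower in EBC1 (median log2 difference -1.94 with genes at 0 counts set to their bound, all genes -0.06), a share near the 55.7% of all genes called. Between EBC1 and H1975, 0 were called higher and 4 lower in EBC1, and 7 were not called. The median there, with bounds set likewise, was -0.67 (all genes -0.08), and 52.6% of all genes were called. LAMP3, a lamellar body protein, had 21.5 CPM in H1975, 20.7 in H820, 4.88 in H23 and 2.27 in EBC1. PIGR, the immunoglobulin transporter, had 57.5 CPM in H820, 2.75 in H1975, 0.112 in EBC1 and 0 in H23. LPCAT1 and ABCA3, enzyme and transporter of surfactant lipid, had 359 and 51.2 CPM in EBC1 and 362 and 62.3 in H1975, and LPCAT1 did not differ between these lines beyond its spread (log2 -0.01 ± 0.158, adjusted p = 0.972). The secreted surfactant and club proteins were scarce throughout, with 0 to 1 count of SFTPC and 0 counts of SCGB1A1 and SCGB3A2 in every library. SFTA3, which lies 2562 bases from NKX2-1 on the same strand, had 384 and 317 counts in H1975, 60 and 267 in H820, 8 and 8 in H23, and 0 in EBC1.

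Most tested genes of a gut and liver type list were highest in H820, the line with the most FOXA1 and CEBPA. Of 19 listed, 13 passed the filter, and 12 had their highest mean in H820. The filter partly sets this count too, since CDH17, with 3.28 CPM in H820 and at most 0.166 elsewhere, passed through H820 alone. Against H1975 all 13 were called higher in H820, where 54.5% of all genes were called in either direction. The median log2 difference was 6.21 with genes at 0 counts set to their bound (all genes -0.01). Genes that passed through H820 alone are among the 13, so the filter partly sets these calls and this median too. FOXA3, the forkhead paralogue of liver and gut, had 48.2 CPM in H820, 0.929 in H23, 0.661 in H1975 and 0.134 in EBC1. VIL1, a brush border protein, had 36.02 CPM in H820 and at most 0.276 in the other lines. AGR2, a mucin-folding enzyme, was also abundant in EBC1, with 84.8 CPM beside 124.0 in H820, 10.5 in H1975 and 1.17 in H23. The 6 genes that did not pass the filter were near 0 in H820 too, among them HNF4A at 0.0847 CPM, ALB at 0.448, APOA1 at 0.131 and TTR at 0.0465. NKX2-1 was also high in H820, whereas EBC1, with NKX2-1 near 0, had 0 of the 13 genes at their highest.

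Most listed genes of the ETV5 pathway were highest in H23, as ETV5 was. Of 11 PEA3 and FGF-ERK feedback genes, all passed the filter, and 9 had their highest mean in H23, 1 each in H820 and EBC1, and 0 in H1975. H23 against H1975 had 10 called higher and 1 lower (median log2 difference 1.63, all genes 0.04), where 62.6% of all genes were called in either direction. DUSP6, the phosphatase that turns ERK off, had 146 CPM in H23, 136 in EBC1, 21.1 in H1975 and 18.4 in H820, and H23 and EBC1 did not differ (log2 0.10 ± 0.193, adjusted p = 0.686). SPRED2, an inhibitor of RAS signalling, had 110 CPM in H23 and 26.9 to 37.2 in the others. ETV1 and ETV4, the other PEA3 factors, were also above their H1975 level in H23, by 4.46 ± 0.178 and 1.64 ± 0.162 on the log2 scale (adjusted p = 2.76e-13 and 7.10e-08). PHLDA1, a target of ERK signalling, was instead highest in EBC1 with 430 CPM against 225 in H23. DUSP4, another phosphatase of MAP kinases, had 41.1 CPM in H820 and its lowest level, 13.4, in H23.

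Of 30 other airway and alveolar factors, 9 were highest in EBC1, 9 in H23, 8 in H820 and 4 in H1975. ELF3, an epithelial ETS factor, had 872 CPM in H820, 400 in EBC1, 246 in H1975 and 0.899 in H23. H23, which had very little ELF3, was also the line with the lowest GATA6. The other factors low in H23 were not low there alone. FOXA2 was near 0 in H820 too, TP63 was lower in EBC1 and H820, and FOXA1 was lower in H1975. SOX4 had 905 CPM in H820 and 148 to 209 in the other lines, and CEBPB and CEBPD were highest in EBC1 at 366 and 262 CPM. Of 10 neuroendocrine and tuft factors, 7 passed the filter, and 3 had their highest mean in H23, 2 in EBC1 and 1 each in H1975 and H820.

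Transcripts next to the factors were read where they were listed. TTC6, 27030 bases from FOXA1 on the opposite strand, had 27.6 and 26.9 CPM in H820, 9.03 and 4.93 in EBC1, 1.49 and 1.46 in H23, and 0.175 and 0.141 in H1975, the same order of lines as FOXA1. LINC00261, 2362 bases from FOXA2, had 31 and 40 counts in H1975, 1 and 13 in EBC1 and 0 in H23 and H820, the lines in which FOXA2 was near 0. NKX2-1-AS1, on the opposite strand and so counted apart, had 28 and 32 counts in H1975, 7 and 17 in H820, 5 and 11 in H23 and 0 in EBC1. CEBPA-AS1 did not follow its neighbour, with 2.52 CPM in H23 and 2.08 in H820. LINC00842, which was on the same list but lies on chromosome 10, away from all 9 factors, had 7.76 CPM in H1975 and at most 0.671 in the other lines.

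Markers of other cells were read in the same libraries. Among 8 immune markers, CD68, which is also a lysosomal protein of other cells, was the most abundant, with 5.31 CPM in H23 and 98.5 to 138 in the other lines. PTPRC, the pan-leukocyte marker, had at most 8 counts and CD3E at most 1. The summed level of 8 immune markers ran from 8.27 to 10.5 CPM in H23 and from 71.0 to 152 in the other lines, where CD68 made up most of it. The summed level of 7 fibroblast markers ran from 19.6 to 57.8 CPM over all libraries, mostly COL1A1, and that of 5 endothelial markers from 0.192 to 11.5. KDR made up most of the latter in H820 and H1975 and had 0 counts in EBC1. Their part in the differences between lines was not tested.

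For each factor, the protein-coding genes with the most similar pattern were those with the smallest root mean square (RMS) difference of log2 CPM centred on the 8 libraries. These patterns are over 4 lines, so many genes share them, and the values are a description. TP63 was nearest to RP11-666A8.13, ST6GALNAC2 and ZNF93 (RMS 1.19 to 1.33), and ZNF93 had 48.7 and 57.9 CPM in H1975 beside at most 3.73 elsewhere. NKX2-1 was nearest to MAOA, CREB3L1 and ZNF880 (0.42 to 0.60), and SOX2 to ATAT1, APLF and ZSCAN23 (0.12 to 0.13). FOXA1 was nearest to C1orf106, FLNC and its neighbour TTC6 (0.46 to 0.54). FOXA2 was nearest to IGFBP6, SERPINB5 and IL1RAPL1 (0.67 to 0.72), and IGFBP6 had 72.6 and 89.5 CPM in EBC1 and 55.7 and 57.4 in H1975 beside at most 1.53 in the other lines. GATA6 was nearest to NOV, STAP2 and CD82 (0.23 to 0.28), CEBPA to TM9SF4, PPP1R37 and LRRC24 (0.23 to 0.30), HOPX to HECW2 and LENG9 (0.25 and 0.32), and ETV5 to GKAP1, LRRC8C and USP13 (0.20 to 0.23).

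Treated and untreated spheres were compared to ask whether lineage factor transcripts differed 15 min after PD-L1s. None of the 9 factors was called by edgeR, where 0.0372% of all genes (9 of 24185) were, and 1 factor and 873 genes had an unadjusted p under 0.05. DESeq2 called 6 genes and 0 factors. The median log2 change over the factors was 0.09, beside 0.04 over all genes. Fitted changes were at most 0.36 in size except for the sparse HOPX (-0.42 ± 0.607).

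**Figure D4:**
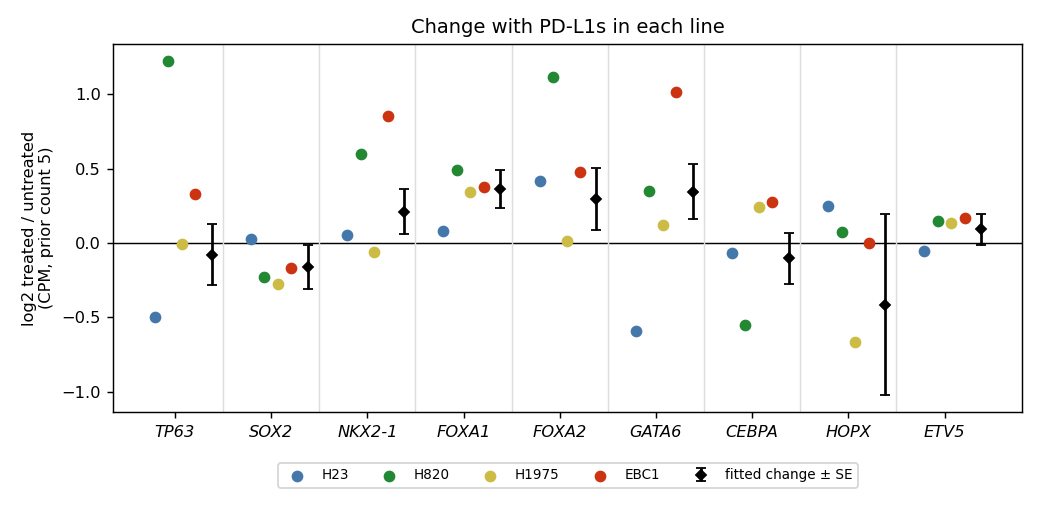
Points give the log2 ratio of treated to untreated CPM (prior count 5) in each line for each factor, and black diamonds the fitted change over 4 lines with its SE. FOXA1 lies above 0 in all 4 lines (0.08 to 0.49), and GATA6 runs from -0.59 in H23 to 1.01 in EBC1. The highest point, 1.22 for TP63 in H820, rests on 0 and 8 counts.

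FOXA1 was the factor with the unadjusted p under 0.05, and it was higher in 4 of 4 lines. Its log2 ratios, formed with a prior count of 5, were 0.49 in H820, 0.38 in EBC1, 0.34 in H1975 and 0.08 in H23, and its fitted change was 0.36 ± 0.126 (4 lines, edgeR adjusted p = 0.9995). FOXA2 was also higher in 4 of 4 lines (0.30 ± 0.207), but in H23 and H820 it had at most 7 counts. GATA6 had ratios of 1.01 in EBC1, 0.35 in H820, 0.12 in H1975 and -0.59 in H23, and NKX2-1 had 0.85, 0.60, -0.06 and 0.05 in that order. The larger of these ratios were in EBC1 and H820, the lines whose untreated libraries were shallow, and the part of depth was not tested. SOX2 (-0.16 ± 0.147), CEBPA (-0.10 ± 0.173), TP63 (-0.08 ± 0.206), ETV5 (0.09 ± 0.104), NKX2-1 (0.21 ± 0.151) and GATA6 (0.35 ± 0.185) had mixed directions over the lines. None of the lists had a gene called for treatment.

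Whether the response differed in the line labelled squamous was tested as an interaction, with 1 pair from EBC1 and the spread estimated in the adenocarcinoma lines. No factor was called, where 0.0124% of all genes (3 of 24185) were, and 1 of 8 factors and 1093 genes had an unadjusted p under 0.05. That factor was GATA6, whose change in EBC1 exceeded that in the adenocarcinoma lines by 0.94 ± 0.347 on the log2 scale (edgeR adjusted p = 1). FOXA1 did not stand apart in EBC1 (0.03 ± 0.263, adjusted p = 1). HOPX gave no value, having 0 counts in EBC1.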

How the data were processed

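The authors deposited, for each gene, unnormalised counts of read pairs from stranded total RNA libraries depleted of ribosomal RNA, per the labels' protocols, with the exonic length of each gene beside them. Alignment to GRCh37 used STAR 2.7.3a and counting used featureCounts (Subread 2.0.0), per the submitters' processing notes. Counts were, per the file headers, reverse-stranded over GENCODE basic exons, held primary alignments, and gave a pair overlapping several same-strand genes to each, so such genes share reads.

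Counts were tested with edgeR 4.0.16 (R 4.3.3, quasi-likelihood F test, TMM, cell line plus treatment as terms, expression filter at a minimum count of 10 with the line as group), and p-values were adjusted over 24185 genes. Untreated and treated libraries were paired by line, as the labels give it, and the 4 lines were the replicates of treatment. All tests were two-sided. Log2 ratios within lines used a prior count of 5. Nearest patterns and the log2 line means of the permutation test used a prior count of 2. Levels and means in CPM and FPKM used no prior count. Intervals and the floor of 3 counts cover counting error only. The fitting code was tested on simulated counts. The members and lists were chosen with earlier results of these data known. All 9 factors are named, with up to 4 genes of each list by highest mean CPM, the neighbouring transcripts and the 3 nearest patterns among genes with a mean log2 CPM of at least 1. A few genes that this rule takes are not reported here. Other genes named (KRT5, DSG3, NAPSA and SFTPB as label markers, and KRT6A, KRT14, KRT15, KRT17, CLCA2, PKP1, DUSP4, CDH17, HNF4A, ALB, APOA1, TTR, ETV1, ETV4, SFTA3, SFTPC, SLC34A2, SCGB1A1, SCGB3A2, PTPRC and CD3E as list members) fall outside that ranking, and all but the label markers were chosen after their values were seen. Alternatives were DESeq2 1.42.0, library size only, other count filters, no pairing, H23 and H1975 only, and each line or library left out. Sequences are RefSeq promoters on GRCh38.p14.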

Additional observations from a re-analysis of the deposited data

Results flagged for a closer look

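The factor levels and treatment changes were each screened over the 4 lines for a line far from the others, as the gap to the nearest other line divided by the whole range on the log2 scale. Of 27 groups 4 exceeded Dixon's critical value for 4 values, where chance alone flags about 5% of independent groups. The levels and the change of a factor share lines and libraries, so the groups are not independent and no excess can be read from this count. The level of GATA6 in H23 stood low, with a ratio of 0.912 in the untreated and 0.838 in the treated libraries. The untreated level of CEBPA in H820 stood high, with a ratio of 0.857. The treatment change of ETV5 in H23, a log2 ratio of -0.06, stood below the others (ratio 0.839), the nearest being 0.13 in H1975, and these values are small.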

How the results depend on the processing

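No factor was called for treatment under any alternative run. The 9 genes called for treatment became 15 with library size only, 98 with any gene with a count, 3 at a minimum count of 50, 0 with no replicate block (the pairing by line dropped), 28 with H23 and H1975 only, and 5 to 20 with a line left out. With no replicate block the change of FOXA1 was 0.46, and its call did not change. The interaction's 3 genes became 6 with library size only. In EBC1 against the adenocarcinoma lines, 6791 genes were higher and 6376 lower, but 4779 and 8923 with library size only, which moved the median of all genes from -0.08 to -0.40. With 1 library or line left out, 3975 to 7133 genes and 3 to 5 factors were called lower. Of the factor values there, 112 kept their side of the threshold, 19 lost the call and 2 reversed: ETV5 was -0.00574 with library size only and -0.20 to 1.15 with 1 left out.

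Among neighbouring lines 284 kept their side, 27 lost and 3 gained the call, and 7 reversed, none of them called. With library size only, TP63 in EBC1 against H820 was -0.17 and CEBPA in H1975 against H23 -0.0574. With 1 library left out, the ranges were -0.57 to 5.46 for TP63 in EBC1 against H820, -0.0811 to 0.43 for CEBPA in H23 against EBC1, -0.18 to 0.81 for GATA6 in EBC1 against H1975 and -4.19 to 1.34 for FOXA2 in H820 against H23. Fitted values of TP63 and FOXA2 without the treated H820 library rest on 0 counts there and are no measure of size. For treatment, TP63 was 0.23 with DESeq2 and -0.10 to 0.0893 with a line left out, NKX2-1 -0.0303 with H23 and H1975 only and -0.00491 to 0.34, and CEBPA 0.11 and -0.26 to 0.14. The causes were not tested. HOPX had no value at a minimum count of 50 or without H1975. Depth limited TP63, NKX2-1, FOXA2 and HOPX in the shallow untreated libraries of EBC1 and H820.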

Other observations

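Within the squamous list, KRT6A, a keratin of stressed and squamous epithelium, had 2 counts in untreated and 119 in treated H1975 (0.0873 and 5.61 CPM), and at most 2 in any library of the other lines. DSG3 had 3 and 23 counts in the same libraries, and PKP1, a desmosomal plaque protein, 0 and 10. Their partner KRT14 had 1 and 3, KRT5 1 and 1, and TP63 1997 and 1839. Each condition is 1 library here, so these differences have no replicate check, and they were noticed after the values were seen. KRT6A has near-identical paralogues, so its count is uncertain. SLC34A2, a phosphate transporter of alveolar type 2 cells, had 6.10 and 27.6 CPM in untreated and treated H820 and 1.40 and 0.896 CPM in H1975, and its treatment change did not pass the test over lines (log2 0.96 ± 0.395, edgeR adjusted p = 0.9995).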
